A study of Mus musculus with 4 samples.

Results

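RNA levels at the spinal cord lesion of ApoE4 male mice were compared between 21 and 7 days post injury (dpi). Genes were taken when the deposited table listed them at both times and their mean over both ApoE4 groups was at least 1 FPKM, a unit that divides fragments by transcript length and by library size. This gave 10862 of the 14717 genes listed at either time. Of the others, 3247 were listed at 7 dpi alone, 594 at 21 dpi alone, and 14 at both times under the minimum. Just inside the minimum was 4833418N02Rik, with a mean of 1.04 FPKM, and just outside it was Ltf, with 0.963 FPKM.

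The mice were targeted replacement animals in which the coding region of human ApoE4, or of ApoE3 in the other genotype, replaces that of the murine gene. At 3 to 5 months of age they received a 50 kdyne contusion of the mid-thoracic cord, and cord tissue holding the lesion was taken at 7 or at 21 dpi. The table holds 1 value per gene for each of the 4 groups (ApoE3 and ApoE4 at each time), and each value stands for 3 mice. Variation among animals is not in the table, so no difference below has a replicate check and none was tested. Uninjured or sham-operated cord was not analysed here.

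The table can be read in either of 2 ways. Its rows name each comparison as ApoE3 against ApoE4, whereas the numbering of its columns places ApoE4 first. The order in the row names was used, as in the study's own supplement, and under the other reading the values given here for ApoE3 would be those of ApoE4. Apoe itself cannot settle this, since it is replaced in both genotypes. Apoe was listed at 21 dpi alone, at 1311 FPKM in ApoE4 and 843 FPKM in ApoE3.

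The tissue carried the markers of spinal cord at both times in ApoE4. Myelin basic protein (Mbp) stood at 127575 FPKM at 7 dpi and 278678 FPKM at 21 dpi, and the astrocyte filament gene Gfap at 12386 and 15313 FPKM. The Hox genes that mark thoracic levels were listed too, with Hoxb8 at 226 and 692 FPKM. All 4 Y-linked genes searched for were listed at both times, as the label male requires.

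Values at 7 and 21 dpi come from separate cuffdiff comparisons. All libraries had been down-sampled to the same read number before alignment, but a common normalisation of both comparisons is not stated in the sources used here. In ApoE4 the median log2 ratio of 21 over 7 dpi, with 1 added to each FPKM value, was 0.53, a 1.44-fold higher level, and 78.3% of genes had a ratio above 0. In ApoE3 the median over the same genes was 0.09, and 55.9% were above 0. The origin of these medians was not tested. Each ratio below is centred, that is, given relative to the median of its genotype, so that -1 is 2-fold lower than the typical gene. The added 1 pulls ratios of scarce transcripts towards 0. A gene missing from a time point is not a gene at a low level: Cd68, a lysosomal protein of macrophages, had 1696 FPKM at 7 dpi in ApoE4 and was not listed at 21 dpi. Among genes listed at 7 dpi alone, 1025 had at least 100 FPKM in ApoE4.

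After a contusion of the cord, blood monocytes enter the tissue, become macrophages and take up the debris of myelin, while resident microglia multiply and change state. Fibroblasts that spread from vessels and meninges lay down a collagen-rich core, and astrocytes wall it off. Neurons and oligodendrocytes are lost at the epicentre, and spared tissue at its rim remains. Apolipoprotein E carries the cholesterol and lipid that such debris releases.

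Between 7 and 21 dpi the ApoE4 lesion showed more large decreases than large increases. Of the 10862 genes, 554 (5.1%) were at least 2-fold higher at 21 dpi after centring, and 982 (9.04%) were at least 2-fold lower. In ApoE3, 483 of the same genes (4.45%) were higher and 926 (8.53%) were lower. An 8-fold difference or more was seen for 54 genes that were lower and 3 that were higher in ApoE4. The middle of the distribution was narrow, with centred quartiles at -0.45 and 0.40. Nearest to the 2-fold line were Zmat2 inside it and Tdrd6 outside it on the higher side, and Zbed3 inside it on the lower side. Zmat2 had 27.4 and 80.9 FPKM at 7 and 21 dpi, Tdrd6 had 6.14 and 19.6 FPKM, and Zbed3 had 37.0 and 26.3 FPKM. The balance of both directions depends on the centring. With no centring 2313 genes were higher and 432 lower, and with each group scaled to the same summed FPKM 322 were higher and 1212 lower.

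Genes were grouped into 66 lists of cell types, pathways and tissues, of which 62 had the 4 members needed for a median. The centred median was -0.5 or less in 25 lists and 0.5 or more in 11. The lists at the low end were those of scar matrix, macrophages, collagens and dividing cells, and those at the high end were skeletal muscle genes, followed by erythrocyte, neuronal, neutrophil and mitochondrial genes. Of these, the muscle and neutrophil lists had a median above 0 in ApoE4 and below 0 in ApoE3.

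**Figure D1:**
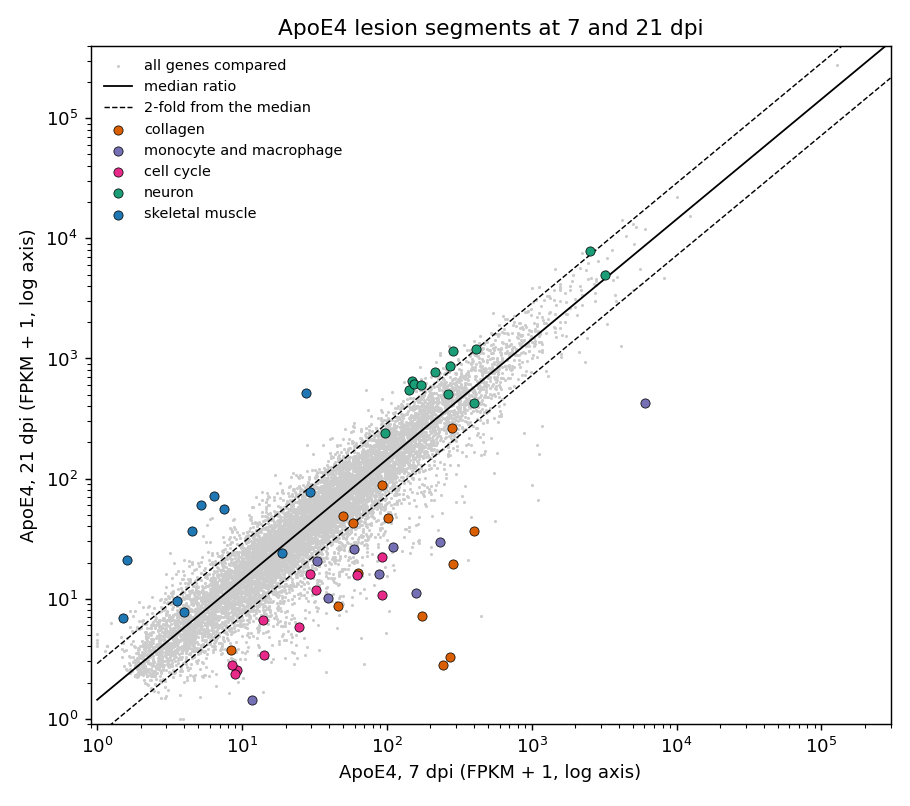
Each point is 1 of the 10862 genes, with FPKM plus 1 in ApoE4 at 7 dpi on the horizontal log axis and at 21 dpi on the vertical log axis; the solid line is the median ratio and the dashed lines are 2-fold from it. Members of 5 gene lists are coloured: collagen, macrophage and cell cycle genes lie below the lower dashed line or between it and the median, and most neuron and skeletal muscle genes lie above the median.

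Macrophage genes were among those with the largest decreases. All 9 members of the monocyte and macrophage list that were listed at both times, of 18 in the list, were at least 2-fold lower at 21 dpi, with a median of -2.97, beside 9.04% of all genes. Lyz2, the lysozyme of myeloid cells, had 6076.5 FPKM at 7 dpi and 426 FPKM at 21 dpi in ApoE4. The scavenger receptor Msr1 went from 159 to 10.1 FPKM, and Ms4a7, a membrane protein of macrophages, from 231 to 28.6 FPKM. The least changed member was Cd14, the co-receptor for lipopolysaccharide, at -1.22. Of the remaining members, 7 were listed at 7 dpi alone, 1 (Fn1) at 21 dpi alone and 1 (Cd163) at neither time. In ApoE3 the median was -3.12. In tissue RNA, fewer cells of a type and less RNA per cell cannot be told apart.

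Genes of lipid-laden and debris-clearing cells had the same direction. In the list of lipid handling by foam cells, 11 of 15 members were at least 2-fold lower, beside 9.04% of all genes. The median was -1.62 in ApoE4 and -1.48 in ApoE3. Gpnmb, a glycoprotein of lipid-loaded macrophages, stood at 1098 FPKM at 7 dpi and 65.3 FPKM at 21 dpi. The lipid droplet coat protein Plin2 had 1120 and 160 FPKM, and Abca1, which exports cholesterol to apolipoproteins, had 340 and 63.1 FPKM. The small apolipoproteins were the exception, with Apoc1 at 102 and 176 FPKM, a ratio of 0.26, and Apoc4 at 0.48. The lysosomal list had a median of -1.52. At least 2-fold lower were 11 of its 15 members listed at both times, of 27, beside 9.04% of all genes. Summed over the 15 the level went from 6455 to 3416 FPKM in ApoE4. Over every listed member it was 9848 FPKM at 7 dpi and 12944 FPKM at 21 dpi. Psap (8680 FPKM) was listed at 21 dpi alone. Cathepsin B (Ctsb) went from 2330 to 930 FPKM and the proton pump subunit Atp6v0d2 from 65.6 to 3.66 FPKM. The glycogen-degrading enzyme Gaa was higher by 0.39. Among phagocytosis and clearance genes the median was -1.06, with the scavenger receptor Stab1 at -4.19 and the engulfment adaptor Elmo1 at 0.34. Msr1 and Abca1 belong to more than 1 of these lists, which are therefore not independent of each other.

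Microglial genes were lower by a smaller amount than those of the macrophage list. The homeostatic list had a median of -1.17 over 9 of 15 members. Of the 9, 5 were at least 2-fold lower, beside 9.04% of all genes. Csf1r, the receptor that microglia need for survival, had 183 FPKM at 7 dpi and 117 FPKM at 21 dpi, a centred ratio of -1.17. Siglech, a lectin of resident microglia, was the member that was higher, at 104 and 237 FPKM. In the list of disease-associated microglia the median was -1.65 over 13 of 20 members. Igf1, a growth factor that these cells release, went from 1080 to 189 FPKM, whereas the cystatin Cst7 had 21.9 and 40.2 FPKM. Aif1, which encodes the microglial marker IBA1, had 285 and 320 FPKM, a centred ratio of -0.36. The receptor gene Trem2 (561 FPKM) and its adaptor Tyrobp (318 FPKM) were listed at 7 dpi alone, and Spp1 (1809 FPKM) at 21 dpi alone.

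Complement genes were mostly lower. The 3 chains of C1q, the initiator of the classical pathway, were lower at 21 dpi, with C1qa at 1254 and 790 FPKM and ratios of -1.19 for C1qa, -1.39 for C1qb and -1.43 for C1qc. The receptors C3ar1 and C5ar1 were at -3.00 and -3.02. C4b, which astrocytes and microglia make, had 2799 and 4439 FPKM, a ratio of 0.14, and the inhibitors Cd59a and Cd55 were at 0.45 and 0.57, whereas the C1 inhibitor Serping1 went from 83.4 to 43.4 FPKM. Over 17 of 19 members the median was -1.19 in ApoE4 and -0.83 in ApoE3.

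In ApoE4 the list with the lowest median of the 62 was that of matricellular and scar matrix genes. The macrophage list was lower in ApoE3, at -3.12. It was also lower in ApoE4 with centring within bins of transcript length, at -3.23 beside -2.95 for scar matrix. In the scar matrix list, 10 of 13 members listed at both times, of 19, were at least 2-fold lower, beside 9.04% of all genes. The median was -3.10 in ApoE4 and -2.11 in ApoE3. Of the other members, Spp1 (1809 FPKM) and Fn1 (511 FPKM) were listed at 21 dpi alone, 3 at 7 dpi alone and 1 at neither time. Summed over the 13 the level went from 1382 to 241 FPKM in ApoE4, whereas over every listed member it was 1474 FPKM at 7 dpi and 2562 FPKM at 21 dpi. Periostin (Postn), a matrix protein of activated fibroblasts, went from 200 to 26.1 FPKM in ApoE4, and the proteoglycan biglycan (Bgn) from 378 to 47.1 FPKM. Thbs1, a secreted activator of TGF-beta, went from 32.9 to 2.77 FPKM, and elastin (Eln) from 200 to 22.4 FPKM. Ccn2, a TGF-beta target, and fibromodulin (Fmod) were within 2-fold, at -0.29 and -0.32.

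All 13 collagen chains listed at both times had a centred ratio below 0. At least 2-fold lower were 9 of them, beside 9.04% of all genes. The median was -2.48 in ApoE4 and -1.61 in ApoE3. The remaining 8 of the 21 chains in the list were listed at 7 dpi alone, Col4a1 of the basement membrane among them at 553 FPKM. The fibril-forming chains of skin and scar had some of the lowest ratios: Col3a1 had 243 FPKM at 7 dpi and 1.79 FPKM at 21 dpi, and Col1a1 had 270 and 2.26 FPKM. Col1a2, the partner chain of Col1a1, went from 173 to 6.19 FPKM. Col6a3, of the beaded filaments around cells, had 285 and 18.4 FPKM, and Col18a1, a basement membrane collagen, 399 and 35.8 FPKM. Col16a1, Col27a1 and Col11a1 were the chains with the smallest differences, at -0.62, -0.59 and -0.55. In ApoE3 Col3a1 stood at 178 and 2.31 FPKM and Col1a1 at 212 and 2.44 FPKM.

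Enzymes that act on collagen and matrix moved less than the chains. The median over 14 of 21 collagen modifying enzymes was -1.04. The cross-linking enzymes Lox and Loxl1 went from 22.4 to 3.14 FPKM and from 21.9 to 2.56 FPKM, whereas the prolyl hydroxylase subunit P4hb was at -0.74. Among 13 of 20 matrix proteases and inhibitors the median was -1.26. Mmp2 and Mmp14, which fibroblasts make, were at -3.23 and -3.05, and Mmp12, the macrophage elastase, was at -2.89. Higher than the typical gene were the inhibitor Timp4, at 72.8 and 136 FPKM, and Mmp9, with 4.91 FPKM at 7 dpi and 20.03 FPKM at 21 dpi in ApoE4, and 3.65 and 11.5 FPKM in ApoE3. Chondroitin sulfate proteoglycans, which limit axon growth around a scar, had a median of -0.77, with versican (Vcan) at -2.10 and brevican (Bcan) of perineuronal nets at 0.45.

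The cells that make this matrix were represented by 14 of 19 pericyte and perivascular fibroblast genes, with a median of -0.75. The fibroblast proteoglycans Lum and Dcn had ratios of -3.59 and -3.00, whereas the pericyte gene Rgs5 had 109 FPKM at both times, a ratio of -0.53. Dcn differed in sign between the genotypes, with 56.6 and 9.37 FPKM in ApoE4 and 45.7 and 61.9 FPKM in ApoE3. Over 5 of 14 genes of meninges and choroid plexus the median was -0.93, their summed level went from 257 to 71.2 FPKM, and the most abundant was Mgp, which is also in the matrix list. The choroid plexus transporter gene Ttr was listed at 21 dpi alone, at 5.40 FPKM. What part of the matrix result came with meninges was not tested. Endothelial and barrier genes had a median of 0.13, with the glucose transporter Slc2a1 at 113 and 223 FPKM and the junction gene Cdh5 at -1.30. Angiogenesis factors were at -0.15, with Angpt2, which loosens vessels, at -2.27 and Pgf at 0.55.

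Genes of dividing cells were mostly lower. All 11 cell cycle genes listed at both times, of 25, were at least 2-fold lower, beside 9.04% of all genes. Their median was -2.45 in ApoE4 and -2.06 in ApoE3, and 13 more were listed at 7 dpi alone, including Mki67 at 36.0 FPKM. Top2a, the topoisomerase that untangles replicated DNA, went from 92.1 to 9.65 FPKM. Prc1, which bundles the microtubules of the late spindle, went from 92.1 to 21.4 FPKM, and Cdk1, the mitotic kinase, from 23.6 to 4.86 FPKM. The inhibitor of apoptosis and mitotic protein Birc5 had the smallest difference, at -1.40. DNA replication genes had a median of -1.23 over 19 of 25 members, with the methylation reader Uhrf1 at -2.70, the sliding clamp Pcna at 60.2 and 47.5 FPKM, and Pold1 and Prim1 at 0.08 and 0.25.

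Promoters of cell cycle genes often carry a CCAAT box upstream of a cell cycle homology region (CHR), elements through which transcription in G2 and mitosis is controlled. In RefSeq promoters of GRCm38.p6, 21 of the 25 cell cycle genes had an entry, and the 250 bases before the start were searched on both strands. CCAAT was present for 19 of the 21 genes (90.5%) against 40.4% of the 8467 compared genes with an entry, and TTTGAA, the CHR, for 8 (38.1%) against 12.6%. Both were present for 8 genes, against 6.02% of the compared genes. A gene counts once with any of its starts. The 3 promoters below belong to the list members with the largest decreases that have an entry, and show the last 150 bases before the start, 5′ to 3′, with CCAAT and TTTGAA of either strand in capitals. They lie at chr11:99024190-99024339 on the minus strand for Top2a, chr10:69352913-69353062 on the minus strand for Cdk1, and chr7:80294326-80294475 on the plus strand for 1 of 2 starts of Prc1.
Top2a: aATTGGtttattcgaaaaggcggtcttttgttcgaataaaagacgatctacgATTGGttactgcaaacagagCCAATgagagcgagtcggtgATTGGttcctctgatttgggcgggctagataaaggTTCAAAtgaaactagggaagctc
Cdk1: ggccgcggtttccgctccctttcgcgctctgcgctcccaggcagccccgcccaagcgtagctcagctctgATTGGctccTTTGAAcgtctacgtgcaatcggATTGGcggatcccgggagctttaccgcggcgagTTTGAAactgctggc
Prc1: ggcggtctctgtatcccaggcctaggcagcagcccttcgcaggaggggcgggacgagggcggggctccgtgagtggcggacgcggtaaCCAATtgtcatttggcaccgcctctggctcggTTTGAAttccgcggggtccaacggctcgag
Each has at least 1 CCAAT box and 1 CHR in this stretch, though the start of Prc1 not shown has no CHR, with the last CHR 23 bases before the start in Top2a and 30 in Prc1. A match of letters is not evidence that a factor binds.

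Immune signalling genes did not move as 1 group. Cytokines and their receptors were lower, with a median of -1.34 in ApoE4 and -1.39 in ApoE3. In ApoE4, 13 of 16 members were at least 2-fold lower, beside 9.04% of all genes. The receptor subunits Tnfrsf1b and Csf2rb were at -2.53 and -2.29, while the cytokine genes Tnf and Il1b were scarce at both times, Tnf at 3.51 and 3.09 FPKM and Il1b at 2.15 and 2.61 FPKM. Chemokines and receptors had a median of -0.17, with the receptor Cxcr4 at -2.66, the monocyte attractant Ccl2 at -2.29, and the T cell attractant Ccl5 higher, at 9.78 and 34.8 FPKM. Class II antigen presentation genes had a median of -1.49 in ApoE4 and -0.64 in ApoE3, with H2-Eb1 at 32.6 and 7.36 FPKM and the invariant chain Cd74 at 95.9 and 35.8 FPKM. For class I genes the median was -0.62, B2m having 502 and 472 FPKM. Among lymphocyte genes, 15 of 20 T cell markers were not listed at either time, and 4 of 14 B cell genes had a median of -0.57, with Cd22, also a microglial gene, at -2.19.

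Interferon-stimulated genes differed between the genotypes in this comparison. In ApoE4 the median over 20 of 25 members was 0.03, with 12 above 0, and in ApoE3 it was -1.004, with 1 above 0. Ifit3, a translation inhibitor induced by interferon, had 160 and 403 FPKM in ApoE4 and 373 and 212 FPKM in ApoE3. Ifit1 had 7.02 and 16.7 FPKM in ApoE4 and 17.9 and 9.26 FPKM in ApoE3. Interferon-induced GTPases, which attack the vacuoles of pathogens, had a median of -0.14 in ApoE4 and -0.999 in ApoE3, with Iigp1 at 34.9 and 43.7 FPKM in ApoE4 and 70.8 and 27.9 FPKM in ApoE3. The difference between genotypes was not tested. The interferon element GAAANNGAA lay within 250 bases before a start for 9 of the 18 interferon response genes with a promoter entry, against 7.55% of the compared genes with an entry.

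**Figure D2:**
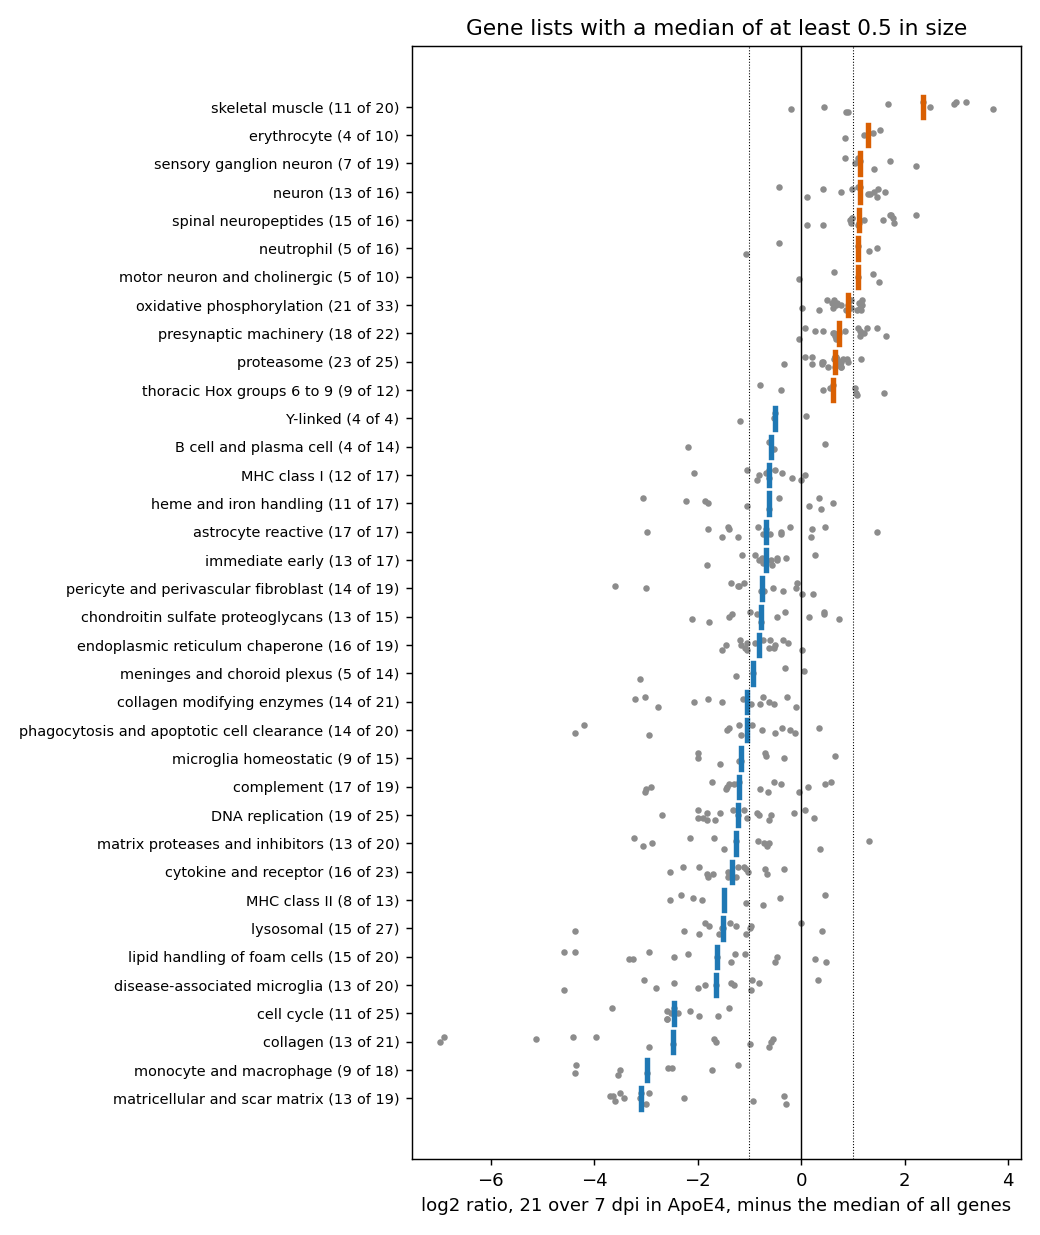
Each grey point is a gene listed at both times, placed by its centred log2 ratio of 21 over 7 dpi in ApoE4, for the 36 lists with a median of at least 0.5 in size; bars are medians, dotted lines mark 2-fold, and brackets give members listed at both times of all members. Collagens range from -6.98 to -0.55, and all members of the macrophage, cell cycle, cytokine and scar matrix lists lie below 0.

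Astrocyte genes were mixed in direction. Over all 17 reactive astrocyte genes the median was -0.68 in ApoE4 and -0.66 in ApoE3. In ApoE4, 6 of the 17 were at least 2-fold lower, beside 9.04% of all genes. The filament vimentin (Vim) had 611 and 333 FPKM, the hyaluronan receptor Cd44 380 and 189 FPKM, and Emp1, a membrane protein of injured epithelium and glia, 163 and 29.0 FPKM. Gfap had a centred ratio of -0.22 and the antiprotease Serpina3n one of -0.60, while Lcn2, an iron carrier of reactive glia and neutrophils, was higher, at 18.1 and 75.2 FPKM. Homeostatic astrocyte genes had a median of -0.07. The water channel Aqp4 was at -1.24, whereas glutamine synthetase (Glul) was at 0.71 and the neurotensin receptor Ntsr2 at 0.81.

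Neuronal genes were higher at 21 dpi. Of 13 neuron genes listed at both times, of 16, 12 were above 0 and 8 were at least 2-fold higher, beside 5.1% of all genes, with a median of 1.13 in ApoE4 and 0.76 in ApoE3. Snap25, a protein of the vesicle fusion complex, had 2545 FPKM at 7 dpi and 7812 FPKM at 21 dpi in ApoE4. Neurofilament Nefm had 286 and 1149 FPKM, and Stmn2, a regulator of axonal microtubules, 147 and 652 FPKM. Map2 of dendrites and the RNA-binding protein gene Elavl4 were close to the typical gene or under it, at 0.12 and -0.42.

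Presynaptic genes had a median of 0.73 over 18 of 22 members, 17 of them above 0. Snap25, Syt1 and Syp are also in the neuron list, so these lists are not independent. The vesicle GTPase Rab3a had 536 and 2409 FPKM, synaptophysin (Syp) 153 and 616 FPKM, and complexin Cplx1 257 and 816 FPKM, whereas the active zone genes Bsn and Unc13a were at 0.07 and -0.04. Receptors and transporters of glutamate, GABA and glycine had a median of 0.24, with no member past 2-fold. Among them the vesicular transporter Slc32a1 was at 0.75 and the glycine receptor subunit Glra1 at -0.65.

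Spinal neuropeptides were higher in all 15 members listed at both times, of 16. At least 2-fold higher were 9 of them, beside 5.1% of all genes. The median was 1.11 in ApoE4 and 0.81 in ApoE3. Tac1, the precursor of substance P, had 27.3 and 188 FPKM in ApoE4. Somatostatin (Sst) had 131 and 636 FPKM, and proenkephalin (Penk) 268 and 763 FPKM. Galanin (Gal) had the smallest difference, at 0.11. Motor neuron and cholinergic genes had a median of 1.09 over 5 of 10 members, the value of Calca, which is also in the neuropeptide list. Ret was the member below 0, at -0.05. Ache (309 FPKM), Prph (94.1 FPKM) and Slc5a7 (37.3 FPKM) were listed at 7 dpi alone in this list. Summed over the 5 the level went from 370 to 1063 FPKM in ApoE4. Over every listed member it was 811 FPKM at 7 dpi and 1066 FPKM at 21 dpi. The vesicular acetylcholine transporter Slc18a3 had 13.7 and 54.4 FPKM, Chodl, of fast motor neurons, 17.9 and 76.4 FPKM, and Chat 5.45 and 13.4 FPKM.

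Sensory ganglion genes listed at both times, and most markers of cord level, were higher too. Calca and Tac1 are also in the neuropeptide list and Nefh in the neuron list, so these lists are not independent of each other. Over 7 of 19 sensory ganglion genes the median was 1.14 in ApoE4 and 1.11 in ApoE3, and their summed level in ApoE4 went from 480 to 1711 FPKM, with Calca (269 and 830 FPKM), which motor neurons also express, the most abundant. Of the markers particular to nociceptors, listed at 21 dpi alone, Trpv1 and Mrgprd were listed at 0 and Scn10a at 0.153 FPKM in ApoE4, beside 20.1 FPKM for Scn10a in ApoE3. P2rx3, another of them, had 6.51 FPKM in ApoE4 and 24.1 FPKM in ApoE3. Thoracic Hox genes had a median of 0.62 over 9 of 12 members, with Hoxb8 at 1.08, Hoxd9 at 1.60, Hoxc6 at -0.40 and Hoxa6 at -0.80. Of 12 caudal Hox genes, Hoxc10 was the 1 listed at both times, at 7.27 and 37.6 FPKM, Hoxd10 had 28.7 FPKM at 21 dpi alone, and Hoxa10 had 5.68 FPKM at 7 dpi alone. What part the level or extent of the segment had in the neuronal values was not tested.

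Regeneration-associated genes had a median of 0.18 over 13 of 14 members. Gap43, Stmn2 and Tubb3 are in the neuron list as well. At least 2-fold higher were 3 of the 13, beside 5.1% of all genes, and at least 2-fold lower were 2, beside 9.04%. The growth cone protein Gap43 had 96.3 and 236 FPKM in ApoE4, a ratio of 0.76, and 117 and 136 FPKM in ApoE3, a ratio of 0.13. Tubulin Tubb3 was at 1.28. The injury-induced transcription factors Atf3 and Klf6 were at -1.82 and -1.28. Neurotrophic factors and receptors had a median of -0.24, with Igf2 at 1012 and 87.4 FPKM and the receptor Ntrk2 at 0.04. Axon guidance and growth inhibition genes were at -0.19, with the semaphorin receptor Plxna1 at -1.41, the myelin inhibitor Omg at 0.52 and Efnb3 at 0.79. Immediate early genes had a median of -0.68, with Jun at -0.75 and Arc at 0.26.

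Ion channel lists had medians above 0 but under 0.5 before length was taken into account. Over 16 of 18 potassium and calcium channel genes the median was 0.32, with Kcna1, of the region beside the node, at -0.88. Sodium channel genes had a median of 0.38 over 6 of 14 members, with the nodal channel Scn8a at 201 and 488 FPKM and the subunit Scn4b at 1.06.

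Central myelin genes had a median of 0.44 in ApoE4 and 0.16 in ApoE3 over 12 of 18 members, 10 of them above 0 in ApoE4. Mbp had a centred ratio of 0.60. It made up 7.65% of all FPKM listed at 7 dpi and 13.6% at 21 dpi. These totals, 1668668 and 2049970 FPKM, do not cover the same genes, since 14123 were listed at 7 dpi and 11470 at 21 dpi. Over the genes compared the totals were 1198734 and 1952951 FPKM. Mobp, another compact myelin protein, had 6068 and 11960 FPKM, and Opalin, of mature oligodendrocytes, 14.8 and 47.6 FPKM, while the tight junction gene Cldn11 was at -0.28. Precursor and differentiation genes had a median of -0.49, with 12 of 14 members below 0. Gpr17 and Tcf7l2, which mark newly formed oligodendrocytes, had 73.6 and 31.1 FPKM and 221 and 122 FPKM. Bcas1, of early myelinating cells, was at 0.29.

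**Figure D3:**
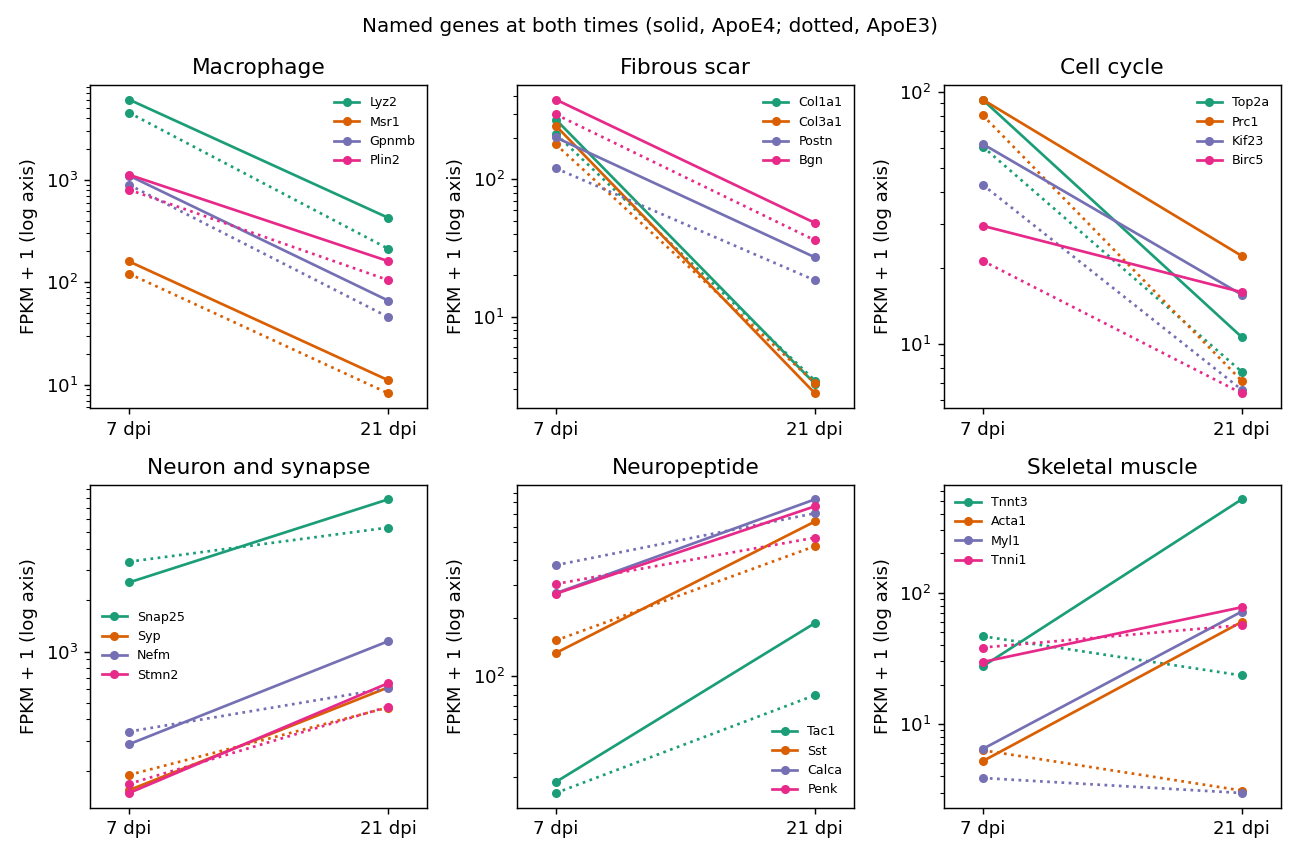
FPKM plus 1 at 7 and 21 dpi on log axes for 24 genes in 6 panels, 1 value per group, with ApoE4 as solid and ApoE3 as dotted lines. Macrophage, scar and cell cycle genes slope down in both genotypes and neuronal genes slope up, whereas Tnnt3, Acta1 and Myl1 slope up in ApoE4 and down in ApoE3.

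Genes of mitochondria and the proteasome were higher as groups. All 21 oxidative phosphorylation subunits listed at both times, of 33, were above 0, with a median of 0.90 in ApoE4 and 0.95 in ApoE3. Cox4i1 of complex IV had 670 and 2134 FPKM and Ndufv2 of complex I had 174 and 570 FPKM. Of 23 proteasome subunits 22 were above 0, with a median of 0.66, the ATPase subunit Psmc5 having 34.5 and 113 FPKM. Cytosolic ribosomal proteins had a median of 0.27, Rpl3 having 868 and 1750 FPKM, and glycolysis and hypoxia genes 0.36, Aldoa having 4457 and 10403 FPKM.

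Many transcripts of these groups are short, and the ratio moved with transcript length. Across 10688 genes with a GENCODE transcript, Spearman's rho between the centred ratio and the longest transcript was -0.32 in ApoE4, and across 10655 genes in ApoE3 it was -0.38. Genes are not independent replicates, and all of these points share the same groups, so this is a description. The median ratio was 0.45 among genes of at most 1361 bases and -0.31 among those of at least 6879 bases. With centring within 10 bins of length, chosen after seeing the data, 360 genes were at least 2-fold higher and 975 lower. The medians were then 0.52 for oxidative phosphorylation, 0.41 for the proteasome and -0.13 for ribosomal proteins. Those of neuron genes (1.02), presynaptic genes (0.88), neuropeptides (1.02), collagens (-2.33), macrophage genes (-3.23) and cell cycle genes (-2.44) were within 0.3 of their values above. Further from them were motor neuron (0.65), erythrocyte (0.85), neutrophil (0.65) and skeletal muscle genes (2.04). Some lists near 0 changed sign, such as regeneration-associated genes at -0.07. Potassium and calcium channels (0.53), sodium channels (0.57) and chemokines (-0.52) passed 0.5 in size, and 10 of the 11 higher and 22 of the 25 lower lists stayed past it. The part of length in any ratio was not tested further.

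**Figure D4:**
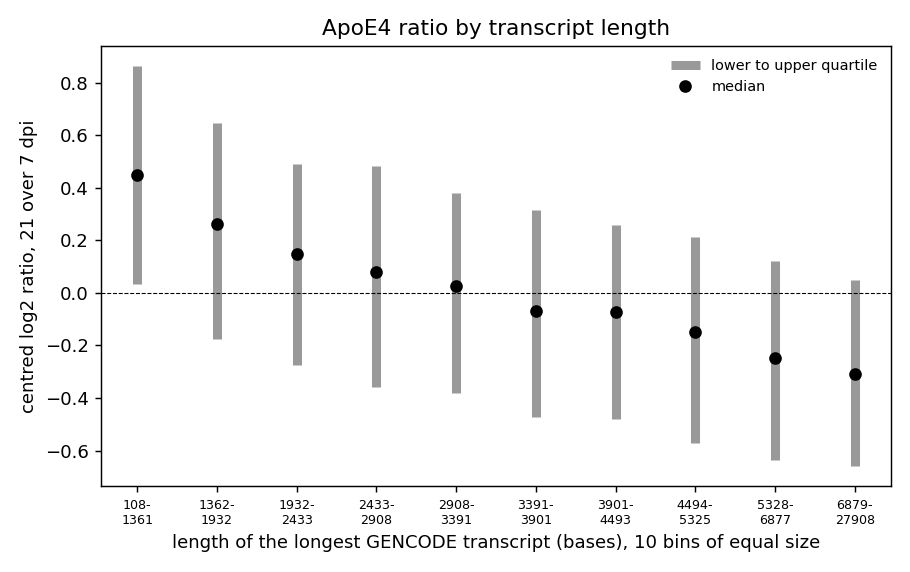
Centred log2 ratio of 21 over 7 dpi in ApoE4 by length of the longest transcript, in 10 bins of equal gene number; points are medians and bars span the quartiles. The medians go from 0.45 in the shortest bin to -0.31 in the longest.

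Stress pathways differed from each other. Endoplasmic reticulum chaperones had a median of -0.82 in ApoE4 and -0.44 in ApoE3, with 15 of 16 members below 0 in ApoE4. The main chaperone of this compartment, Hspa5, had 410 and 261 FPKM, and Sdf2l1 62.1 and 30.7 FPKM. Targets of ATF4, the factor of the integrated stress response, had a median of -0.03, with asparagine synthetase (Asns) at 0.71, and cytosolic heat shock genes had one of 0.08. Heme and iron genes had a median of -0.63. Hmox1, which breaks down heme, went from 90.6 to 15.0 FPKM, and ferritin light chain (Ftl1) from 4136 to 1268 FPKM, whereas ferritin heavy chain (Fth1) had 10043 and 22271 FPKM. The NRF2 antioxidant list had a median of -0.17, with the glutathione transferase Gstm1 at 1.01.

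Lipid synthesis genes stayed close to the typical gene in ApoE4. Cholesterol synthesis genes had a median of 0.14 with no member past 2-fold in either direction, Hmgcs1 having 130 and 201 FPKM. Fatty acid synthesis genes were at 0.02, with Thrsp at 1.13. For 4 of 9 genes at and around the Apoe locus the median was 0.19. Circadian clock genes had one of 0.12, the output gene Dbp having 65.8 and 247 FPKM. Motile cilia genes of ependymal cells had a median of -0.00 in ApoE4 and 0.58 in ApoE3, Foxj1, the master regulator of cilia, having 36.8 and 56.9 FPKM in ApoE4. The Y-linked genes had a median of -0.51.

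Genes of tissues beside the cord supplied most of the largest increases in ApoE4. Of the 10 genes with the largest ratio among those of at least 10 FPKM in 1 group, 6 were skeletal muscle genes. Tnnt3, a troponin of fast fibres, had 26.5 FPKM at 7 dpi and 516 FPKM at 21 dpi in ApoE4, and 45.7 and 22.5 FPKM in ApoE3. Acta1, the skeletal actin, had 4.20 and 59.0 FPKM in ApoE4, and 5.30 and 2.11 FPKM in ApoE3. Over 11 of 20 muscle genes the median was 2.35 in ApoE4 and -0.47 in ApoE3, and their summed level in ApoE4 went from 99.5 to 876 FPKM, with Tnnt3 the most abundant. The muscle creatine kinase Ckm was not listed at either time, and Myh4, of fast fibres, had 3.40 FPKM at 21 dpi alone. The 8-fold higher genes were Tnnt3 at 3.71, Tnnc2 at 3.19 and Acta1 at 3.00.

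Genes of liver and blood were found mostly at 1 time point or at neither. Of 24 liver genes 17 were listed at 21 dpi alone, the highest being Apoa2 at 59.2 FPKM in ApoE4 and 5.38 FPKM in ApoE3, and albumin (Alb) had 5.36 FPKM in ApoE4. All liver genes listed at 21 dpi summed to 202 FPKM in ApoE4 and 24.97 FPKM in ApoE3. Those listed at 7 dpi summed to 1656 FPKM in ApoE4 and 1683 FPKM in ApoE3. Of this ApoE4 sum, 8.20 FPKM came from the 2 members at both times and the rest from 1 member listed at 7 dpi alone. The 2 members at both times were Rbp4, at 2.95 and 20.1 FPKM, and Hp, at 5.25 and 5.90 FPKM. Erythrocyte genes had a median of 1.299 in ApoE4 and 1.44 in ApoE3 over 4 of 10 members, and their summed level in ApoE4 went from 347 to 1335 FPKM, with the globin Hba-a1 the most abundant. Over 5 of 16 neutrophil genes the median was 1.10 in ApoE4 and -0.51 in ApoE3, and their summed level in ApoE4 went from 623 to 531 FPKM. The alarmin S100a9 had 8.19 and 27.4 FPKM in ApoE4, while Csf3r, the most abundant, was at -1.07, and Ly6g and Mpo were not listed at either time.

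The Schwann cell list had a median above 0 in ApoE3 and near 0 in ApoE4, where its members went both ways. Over 13 of 19 members the median was -0.07 in ApoE4, with 6 above 0, and 1.03 in ApoE3, with 12 above 0. Ncmap had 7.59 and 35.7 FPKM in ApoE4, a ratio of 1.57, and 10.2 and 122 FPKM in ApoE3. Pmp22 had 671 and 992 FPKM in ApoE4, a ratio of 0.04, and 693 and 1970 FPKM in ApoE3. Cdh19 was at -0.79 in ApoE4 and -0.29 in ApoE3. The summed level in ApoE4 went from 129325 to 281969 FPKM, nearly all of it Mbp, which is shared with central myelin. Adipocyte genes had 2 of 10 members at both times, with Fabp4, also a macrophage gene, at 51.2 and 6.92 FPKM, and 4 of 15 cartilage and bone genes had a median of 0.34, with Alpl the most abundant at 34.3 and 80.1 FPKM. Without the lists of muscle, liver, sensory ganglion, Schwann cell, erythrocyte, adipocyte and cartilage, 536 genes were at least 2-fold higher and 980 lower. What these tissues contributed to other genes was not tested.

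Some of the genes with the largest ratios lie outside the lists. H19, an imprinted noncoding RNA, went from 444 to 6.21 FPKM in ApoE4 and from 501 to 2.92 FPKM in ApoE3. Cd5l, a secreted protein of macrophages, went from 68.8 to 1.83 FPKM, Folr2, a folate receptor of resident macrophages, from 98.3 to 4.22 FPKM, Acp5, an acid phosphatase of osteoclasts and macrophages, from 360 to 20.1 FPKM, and Anxa1, which limits inflammation, from 37.2 to 1.47 FPKM. Higher at 21 dpi were Bc1, a noncoding RNA of dendrites, at 70.8 and 544 FPKM in ApoE4 and 83.6 and 349 FPKM in ApoE3, and Rpph1, the RNA of ribonuclease P, at 4.99 and 44.8 FPKM in ApoE4 and 10.5 and 10.3 FPKM in ApoE3. LOC115488051 and LOC115490493 were at 2.39 and 2.38 in ApoE4 and near 0 in ApoE3, at -0.21 and -0.25.

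Of genes that the study followed by other assays, transglutaminase Tgm2 was lower, at 51.5 and 15.2 FPKM in ApoE4, a ratio of -2.23. The oxidoreductase gene Ndor1 had 518 and 566 FPKM, and Ppia, used as a reference gene, 246 and 628 FPKM, ratios of -0.40 and 0.83. Nrp1, a semaphorin receptor, was listed at 7 dpi alone, at 148 FPKM, and the dopamine transporter Slc6a3 was not listed at either time.

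**Figure D5:**
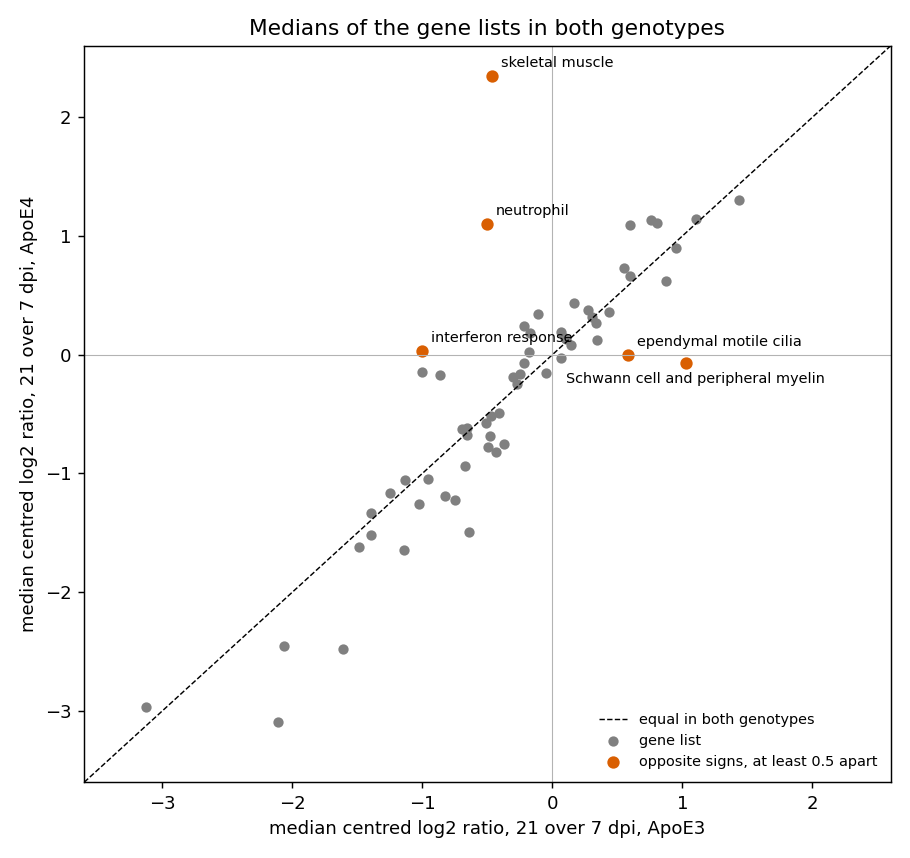
Each point is a gene list, placed by its median centred ratio of 21 over 7 dpi in ApoE3 (horizontal) and ApoE4 (vertical); the dashed line is equality. Named in orange are the 5 lists whose medians have opposite signs and differ by at least 0.5, with skeletal muscle at -0.47 in ApoE3 and 2.35 in ApoE4.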

How the data were processed

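RNA of lesion segments was measured in 4 groups, each with 1 value per gene. For every gene and group the authors deposited FPKM with 1 added, and 1 was subtracted here. The labels name the TruSeq RNA Sample Prep Kit v2, and the submitters' processing notes name STAR 2.5.4b, Bowtie2 2.1.10, SAMtools 0.1.7 and Cuffdiff 1.3.0. All libraries had been down-sampled to the read number of the smallest. The genome build is not given in the sources used here. Reads behind each gene are unknown, so no counting error is given.

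Rows of both times were joined on gene symbol, and 2 symbols per time point that were on more than 1 row were left out, leaving 14123 genes at 7 dpi and 11470 at 21 dpi. Ratios used a pseudocount of 1 and were centred on their median, and ApoE3 ratios on the same genes. No test was run. Lists needed 4 members for a median and are described as shifted at 0.5. The members and lists were chosen with earlier results of these data known. Columns holding the authors' fold changes, p-values and q-values were not used, nor was their table of DEGs, and 0 value columns were left without a group.

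Named genes were the 10 largest and 10 smallest ratios among genes of at least 10 FPKM in 1 group, up to 4 most abundant members of each list with the 2 largest and 2 smallest ratios, the genes of the study's RT-qPCR and staining panels, and markers of other tissues. Some genes that this rule picks are not reported here, though they count in lists and totals. Genes named because they were listed at 1 time, or at neither, were chosen after their values were seen. So were Cdk1, whose promoter is printed, and Serping1. Alternatives were pseudocounts of 0.1 and 0.01, no centring, upper-quartile and summed-FPKM scaling, no minimum or one of 5 FPKM, folds of 1.5 and 4, leaving out other tissues, and the other reading of the columns. Symbols and promoters came from RefSeq GRCm38.p6, and lengths from GENCODE. Python 3.11.15, numpy 2.4.6, pandas 2.3.3 and matplotlib 3.10.9 were used, and the procedure was tested on simulated data.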

Additional observations from a re-analysis of the deposited data

Results flagged for a closer look

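The medians of 5 gene lists had opposite signs in the genotypes and lay at least 0.5 apart, with 1 value per gene and group, so the difference was not tested. ApoE4 minus ApoE3 was 2.81 for skeletal muscle (2.35 and -0.47), 1.61 for neutrophil genes (1.10 and -0.51) and 1.03 for the interferon response (0.03 and -1.004). It was -1.10 for Schwann cell and peripheral myelin genes (-0.07 and 1.03) and -0.58 for motile cilia genes (-0.00 and 0.58). Muscle genes mark tissue beside the cord. Where the Schwann cell genes were expressed was not tested, nor was the part of muscle or Schwann cell genes in other results.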

How the results depend on the processing

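With 1 value per gene and group the precision of a ratio is unknown, and the depth behind each gene is too. No paired analysis was possible because the result comes from no test and each group has 1 value. The 554 higher and 982 lower genes became 2313 and 432 with no centring, 322 and 1212 with scaling to the same summed FPKM, and 360 and 975 with centring within bins of transcript length (chosen after seeing the data). A fold of 1.5 gave 1786 and 2094, and a fold of 4 gave 15 and 226. Under the other settings the counts were within 1.5 times, from 481 to 674 higher and from 916 to 1120 lower. Of the 11 lists with a median of 0.5 or more, all kept a positive sign under each other pseudocount, scaling and minimum, and 9 did under the other reading of the columns. With scaling to the same summed FPKM, 9 of the 11 lists stayed at 0.5 or more. Of the 25 at -0.5 or less, 24 kept a negative sign with no centring, but 15 stayed at -0.5 or less, and the Y-linked median became 0.014. With a mean of at least 5 FPKM 23 still had a median and kept it, and under the other reading of the columns 20 stayed at -0.5 or less. With the other reading, in which genes were also chosen by that genotype's mean, skeletal muscle (-0.42) and neutrophil genes (-0.13) changed sign, and medians moved by over 1.5 times for MHC class II (-0.64), interferon response (-1.01), interferon-induced GTPases (-0.9998), chemokines (-0.87), collagens (-1.61), scar matrix (-2.11) and Schwann cell genes (1.03). Single genes that changed sign there were Acta1 (-1.11), Ccl12 (-0.94), Dcn (0.34), LOC115488051 (-0.21), LOC115490493 (-0.25), Myl1 (-0.47), Mylpf (-0.38), Rpph1 (-0.11), S100a9 (-0.51) and Tnnt3 (-1.08). A further 82 named genes moved by over 1.5 times there, as did 5 with a pseudocount of 0.1 and 6 with 0.01, which were further from 0. The causes were not tested.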
